A study of Homo sapiens with 6 samples.

Results

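The core proteins of the small nucleolar ribonucleoproteins (snoRNPs) are described here through their mRNAs in MDA-MB-231 cells, a human triple negative breast cancer line, after knockdown of the nucleolar DEAD-box helicase DDX18. All 10 listed genes were found by symbol among the 36932 rows of the expression table that carried a symbol of their own, and all 10 passed the filter for testing, a mean of 1 CPM or more (CPM, counts scaled to the library's total). The genes were FBL, NOP56, NOP58 and SNU13 of the box C/D class, and DKC1, NHP2, NOP10, GAR1, NAF1 and SHQ1 of the box H/ACA class. The 6 libraries, made with an mRNA-seq kit, comprised 2 of DDX18 knockdown colony 1, 2 of DDX18 knockdown colony 2 and 2 of control cells. The series set out to profile the transcriptome after loss of DDX18. The sources used here name neither the knockdown reagent nor what the control cells carried, and do not say whether a colony grew from a single cell. Within 1 colony, an effect of the knockdown and a trait of that colony cannot be told apart.

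Box C/D and box H/ACA snoRNPs are the enzymes that modify ribosomal RNA at sites chosen by base pairing with a guide snoRNA. In the box C/D particle SNU13 binds the kink-turn formed by boxes C and D, NOP56 and NOP58 build the scaffold, and fibrillarin (FBL) transfers the methyl group to the ribose. In the box H/ACA particle dyskerin (DKC1) converts uridine to pseudouridine together with NHP2, NOP10 and GAR1. SHQ1 chaperones newly made dyskerin, and NAF1 occupies the place of GAR1 in the precursor until GAR1 replaces it. Dyskerin, NHP2, NOP10 and GAR1 also form part of human telomerase.

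Some of these genes also carry guide RNAs. In GENCODE 29 on GRCh38, 10 named snoRNA genes lay within 3 of the 10 genes, 7 of the C/D and 3 of the H/ACA kind. NOP56 held 4 C/D snoRNAs and 1 H/ACA snoRNA, NOP58 held 3 C/D snoRNAs and DKC1 held 2 H/ACA snoRNAs, all on the strand of the host. The sequences below show what the 2 protein classes recognise, with box C and box D (the last CTGA) of the C/D guides and the 3′ ACA of the H/ACA guides in capitals. All 3 lie in introns of the hosts' basic coding transcripts. They are GENCODE 29 transcripts, written 5′ to 3′ in DNA letters, from the plus strand.
SNORD57 in NOP56, chr20:2656939-2657010: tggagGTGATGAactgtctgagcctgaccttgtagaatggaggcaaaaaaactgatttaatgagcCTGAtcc
SNORD11 in NOP58, chr2:202293051-202293134: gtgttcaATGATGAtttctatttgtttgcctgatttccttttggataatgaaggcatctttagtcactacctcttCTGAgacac
SNORA36A in DKC1, chrX:154768528-154768659: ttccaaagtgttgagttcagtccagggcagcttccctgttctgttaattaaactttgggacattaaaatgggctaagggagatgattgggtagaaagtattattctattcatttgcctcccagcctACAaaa
The guides themselves were almost unseen in these libraries. Of the 10 named snoRNAs, 8 were at 0 CPM in all 6 libraries, among them SNORD57 and SNORA36A, while SNORD11 reached at most 0.541 CPM in 4 libraries. SNORA56, also at 0 CPM, lies with all its 129 nt within exon sequence of basic coding transcripts of DKC1. How reads shared by SNORA56 and DKC1 were counted is not given in the sources used here. Over the whole table, 264 of 405 snoRNA and scaRNA rows were at 0 in every library and 3 had a mean of at least 1 CPM. The values that follow are therefore those of the protein mRNAs, not of the guides.

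The rows, with or without a symbol, held 8843847 to 11902437 reads per library, as implied by the smallest CPM step of each. By that step 1 read was worth 0.0815 to 0.108 CPM. The CPM of a library summed to 956008 to 984969 over these rows, so the total used for scaling was larger than their reads. DDX18 stood at 17.6 and 14.04 CPM in colony 1 and 14.7 and 15.1 CPM in colony 2, against 78.8 and 91.7 CPM in control. All 5 markers of the line (VIM, CD44, AXL, EGFR and CAV1) were expressed, with a summed level of 4863 to 4876 CPM in colony 1 and 5018 to 5020.3 CPM in colony 2, against 4372 to 4390.0 CPM in control. Of these CD44 (log2 0.74, limma adjusted p = 4.0e-12) and EGFR (0.85, adjusted p = 5.9e-12) were called higher and the other 3 were not called. Of 6 luminal and receptor markers, PGR was at 0 throughout, and ESR1 and FOXA1 reached at most 0.201 and 0.306 CPM. ERBB2 was at 102 to 113 CPM in the knockdown libraries and 125 to 134 CPM in control (−0.26, adjusted p = 0.00234), GATA3 at 21.3 to 27.4 CPM in the knockdown libraries and 24.4 to 25.5 CPM in control, and EPCAM at 13.7 to 14.7 CPM in the knockdown libraries and 16.2 to 16.9 CPM in control. The 5 fibroblast markers summed to 14.6 to 16.8 CPM in colony 1 and 14.5 to 19.1 CPM in colony 2, against 16.7 to 20.1 CPM in control, with LUM lower (−1.68, adjusted p = 1.95e-07) and PDGFRB higher (0.40, adjusted p = 0.0376). Endothelial markers summed to at most 0.817 CPM in every library. Of the 5 markers of the embryonic kidney line HEK293, PAX2 and LIN28B were at 0 throughout. Their summed level was 21.3 to 23.6 CPM in colony 1 and 29.4 to 31.5 CPM in colony 2, against 15.1 to 17.5 CPM in control, and came mostly from GATA2 and ZIC2. The part of these marker differences in the results below was not tested. In bulk RNA, less of a transcript in every cell and fewer cells with the transcript cannot be told apart.

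Knockdown of DDX18 left the 2 snoRNP classes neither uniformly higher nor uniformly lower. FBL and NOP56 of the C/D class and DKC1 and NHP2 of the H/ACA class rose by 0.29 to 0.34 on the log2 scale over the 2 colonies, whereas GAR1 fell to 67.4% of control in colony 1 and 63.5% in colony 2. By limma on log2(CPM + 1), with p-values adjusted by Benjamini-Hochberg over the 13675 genes tested and a call at an adjusted p under 0.05, 5 of the 10 genes were called for both colonies against control, 4 higher and 1 lower. Of all genes tested, 44.7% were called, 23.2% higher and 21.5% lower, so the share of snoRNP genes called was near that of the transcriptome. In colony 1 alone 4 were higher and 1 lower, against 39.3% of all genes called (21.1% higher and 18.3% lower). In colony 2 alone 3 were higher and 2 lower, against 40.3% (20.5% higher and 19.8% lower). Without regard to a test, the 4 knockdown libraries lay wholly above the 2 controls for 5 of the genes and wholly below for 1, together 6 of 10, against 53.6% of all genes tested (27.8% higher and 25.8% lower).

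**Figure D1:**
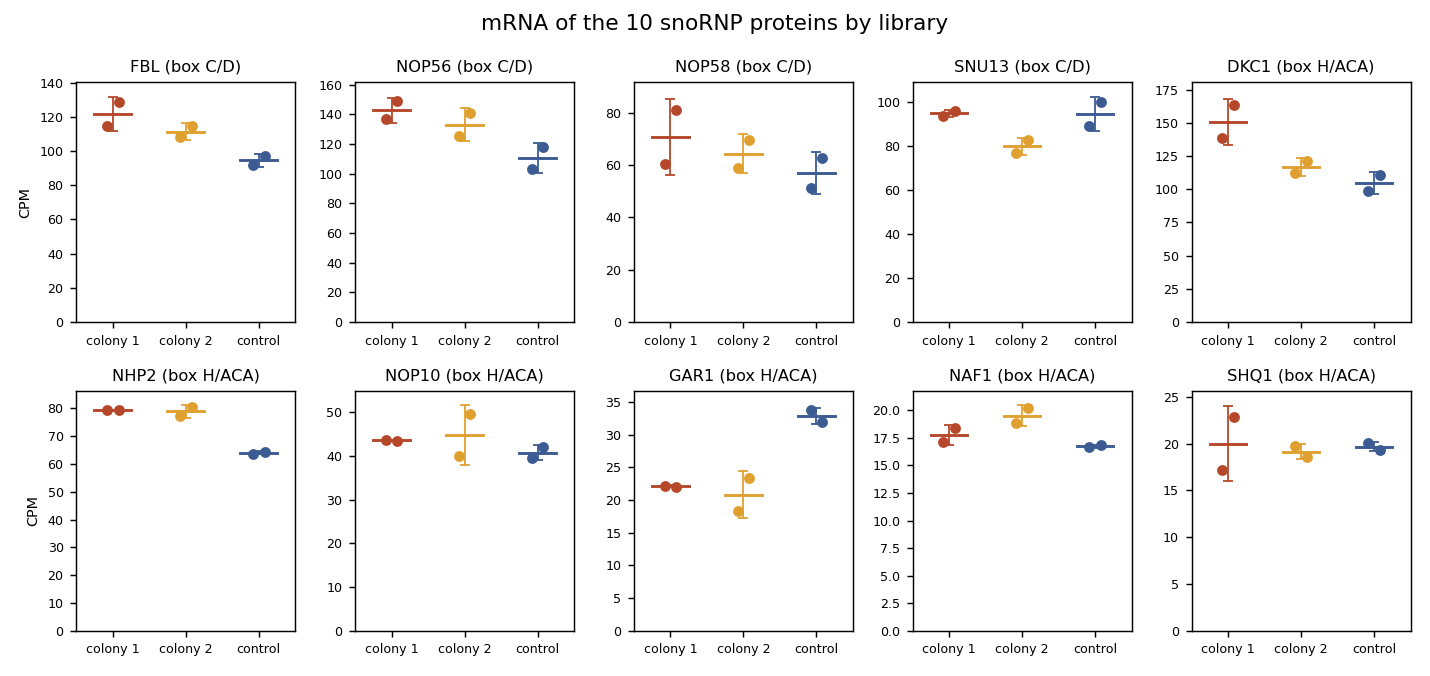
CPM of the 10 snoRNP mRNAs in each library (points), with the mean (line) and SD (bar, n = 2) of colony 1, colony 2 and control. Each y axis starts at 0. GAR1 lies between 18.3 and 23.3 CPM in the 4 knockdown libraries and at 31.9 and 33.7 CPM in the controls, while FBL, NOP56, DKC1, NHP2 and NAF1 lie above both controls in all 4.

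FBL, the methyltransferase of the C/D particle, had 115 and 129 CPM in colony 1 and 108 and 115 CPM in colony 2, against 92.04 and 97.4 CPM in control. Every knockdown library was above both controls. The log2 change was 0.29 for both colonies (SE 0.07, limma adjusted p = 0.00104), 0.36 in colony 1 (adjusted p = 8.1e-04) and 0.23 in colony 2 (adjusted p = 0.0217). The call in colony 2 was lost without control replicate 1 (0.19, adjusted p = 0.120), without the second colony 2 library (0.19, adjusted p = 0.173) and with log values centred on the median (0.19, adjusted p = 0.0650). FBL lies on the minus strand of chromosome 19 at 39834458 to 39846414.

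NOP56, which spans the particle opposite NOP58, had 137 and 149 CPM in colony 1 and 125 and 141 CPM in colony 2, against 103 and 118 CPM in control. The knockdown libraries did not overlap the controls, and the lower colony 2 library was the closest to them. The log2 change was 0.32 (SE 0.07, limma adjusted p = 7.1e-04), with 0.37 in colony 1 (adjusted p = 8.2e-04) and 0.27 in colony 2 (adjusted p = 0.0117). Colony 2 alone was not called without control replicate 1 (0.17, adjusted p = 0.164) or without its own replicate 2 (0.18, adjusted p = 0.191). NOP56 lies on the plus strand of chromosome 20 at 2652145 to 2658393.

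NOP58, the partner of NOP56, had 60.5 and 81.1 CPM in colony 1 and 59.0 and 69.7 CPM in colony 2, against 51.2 and 62.6 CPM in control. The 2 libraries of each colony differed by more than the colony's mean did from control, and one library of each colony lay below the higher control. The log2 change of 0.24 (SE 0.12) was not called (limma adjusted p = 0.108). It was called without control replicate 2 (0.38, adjusted p = 0.0415). Leaving out the first library of colony 1 (0.34, adjusted p = 0.00224) or of colony 2 (0.30, adjusted p = 0.0268) also gave a call. The gene lies on the plus strand of chromosome 2 at 202265716 to 202303666.

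SNU13, the small RNA-binding protein that opens C/D assembly and also binds U4 snRNA, departed from the other C/D mRNAs. It had 93.8 and 96.1 CPM in colony 1 and 77.0 and 82.6 CPM in colony 2, against 89.0 and 100.1 CPM in control. Colony 1 lay between the 2 controls and colony 2 below both. SNU13 fell by 0.24 on the log2 scale in colony 2 (SE 0.08, limma adjusted p = 0.0221), and its log2 difference in colony 1 was 0.0085 (adjusted p = 0.949). The difference between the colonies, −0.25, was itself not called (limma adjusted p = 0.131). The colony 2 call was lost without control replicate 2 (−0.16, adjusted p = 0.227) and without the first colony 2 library (−0.19, adjusted p = 0.170). SNU13 lies on the minus strand of chromosome 22 at 41673930 to 41690504 and shares 43 nt of exon with C22orf46 on the opposite strand.

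DKC1, the pseudouridine synthase, was the H/ACA mRNA with the largest rise in colony 1. It had 139 and 163 CPM in colony 1 and 112 and 121 CPM in colony 2, against 99.0 and 111 CPM in control. Colony 1 stood clear of the other groups, and the lower colony 2 library lay just above the higher control. Colony 1 reached 144% of the control mean and colony 2 reached 111%. The log2 change was 0.52 in colony 1 (SE 0.08, limma adjusted p = 2.2e-05) and 0.15 in colony 2 (adjusted p = 0.148).

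The DKC1 difference between colonies was −0.36 for colony 2 against colony 1 (SE 0.08, limma adjusted p = 0.0164). It was the only one of the 10 called there, against 2.28% of all genes tested (0.629% higher and 1.65% lower). The call was lost without the second colony 1 library (−0.25, adjusted p = 0.302) and without the first colony 2 library (−0.31, adjusted p = 0.207). Over both colonies the log2 change of DKC1 was 0.34 (adjusted p = 4.9e-04). With the 4 knockdown libraries fitted as 1 group, so that the spread between colonies counts as error, it was not called (adjusted p = 0.0509). DKC1 lies on the plus strand of chromosome X at 154762742 to 154777689.

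NHP2, which binds the H/ACA guide and dyskerin complex, had 79.2 and 79.5 CPM in colony 1 and 77.3 and 80.5 CPM in colony 2, against 63.7 and 64.4 CPM in control. The 4 knockdown libraries lay close together and clear of both controls. The log2 change was 0.30 (SE 0.07, limma adjusted p = 0.00114), with 0.31 in colony 1 (adjusted p = 0.00435) and 0.30 in colony 2 (adjusted p = 0.00516). Without colony 2 replicate 2 the colony 2 value was 0.27 (adjusted p = 0.0607).

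On chromosome 5, NHP2 occupies 178149460 to 178153967 on the minus strand. Its annotated exons share 414 nt with those of RMND5B on the plus strand. RMND5B had 79.8 and 86.6 CPM in colony 1 and 69.2 and 74.8 CPM in colony 2, against 62.3 and 61.0 CPM in control. Its log2 change was 0.32 (limma adjusted p = 8.4e-04). If the reads were counted without regard to strand, those of the 2 genes cannot be told apart where they overlap, and the values of NHP2 are uncertain to that extent.

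NOP10, the smallest core subunit, had 43.6 and 43.4 CPM in colony 1 and 39.9 and 49.5 CPM in colony 2, against 39.5 and 41.9 CPM in control. The colony 2 libraries lay on both sides of the higher control. Its log2 change of 0.11 (SE 0.09) was not called (limma adjusted p = 0.361). NOP10 lies on the minus strand of chromosome 15 at 34341713 to 34343177.

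GAR1, the glycine and arginine rich protein that completes the mature H/ACA particle, had 22.2 and 22.02 CPM in colony 1 and 18.3 and 23.3 CPM in colony 2, against 33.7 and 31.9 CPM in control. All 4 knockdown libraries lay well below both controls. The level fell to 67.4% of control in colony 1 and 63.5% in colony 2, with means of 22.1 ± 0.143 CPM, 20.8 ± 3.55 CPM and, in control, 32.8 ± 1.26 CPM (SD, n = 2 each). These values rest on 216 to 330 reads per library.

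GAR1 changed by −0.59 on the log2 scale over both colonies (SE 0.11, limma adjusted p = 9.9e-05), by −0.55 in colony 1 (adjusted p = 0.00137) and by −0.64 in colony 2 (adjusted p = 2.7e-04). It was called in both colonies under each alternative tried, with values for both colonies between −0.68 and −0.51. GAR1 lies on the plus strand of chromosome 4 at 109815510 to 109824740, and no annotated exon of another gene was found to overlap its exons.

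NAF1, which GAR1 replaces during maturation, had 17.1 and 18.4 CPM in colony 1 and 18.8 and 20.2 CPM in colony 2, against 16.7 and 16.8 CPM in control. The knockdown libraries lay above both controls, the closest by a narrow margin. The log2 change of 0.14 (SE 0.12) was not called (limma adjusted p = 0.336). NAF1 lies on the minus strand of chromosome 4 at 163110073 to 163166921.

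SHQ1, the chaperone of dyskerin, had 17.2 and 22.8 CPM in colony 1 and 19.7 and 18.6 CPM in colony 2, against 20.02 and 19.3 CPM in control. The groups overlapped. The log2 difference was −0.013 (SE 0.12, limma adjusted p = 0.943), which is within the spread of these libraries. SHQ1 lies on the minus strand of chromosome 3 at 72749277 to 72861914.

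**Figure D2:**
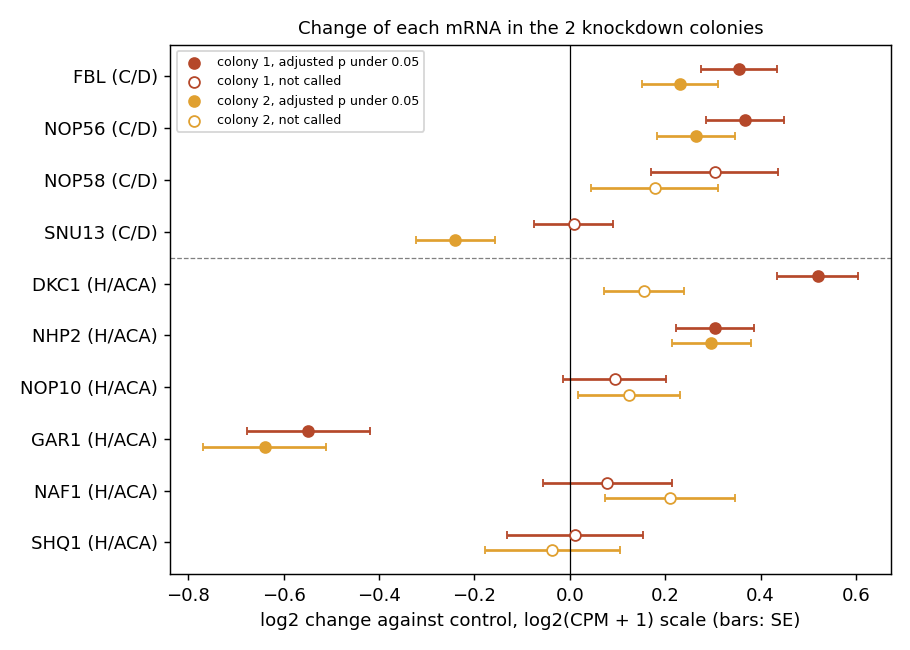
Log2 change of each snoRNP mRNA against control (x axis, log2(CPM + 1) scale, bars are the SE of the limma fit) in colony 1 (red) and colony 2 (yellow), with filled points for an adjusted p under 0.05. The dashed line parts the C/D from the H/ACA genes. GAR1 lies at −0.55 and −0.64, and DKC1 is the gene whose colonies lie furthest apart, at 0.52 in colony 1 and 0.15 in colony 2.

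The 2 classes overlapped in their responses. The 4 C/D mRNAs had a median log2 change of 0.27 and a range of −0.12 to 0.32, with 2 called higher. The 6 H/ACA mRNAs had a median of 0.13 and a wider range of −0.59 to 0.34, with 2 called higher and 1 lower. The median over all genes tested was 0.0051. In colony 1 the medians were 0.33 for C/D and 0.087 for H/ACA, and in colony 2 they were 0.20 and 0.14. All 6 values shifted with single libraries. Over both colonies the C/D median was 0.16 without control replicate 1, and the H/ACA median 0.077 without the second colony 2 library. In colony 1 the C/D median was 0.18 without the second colony 1 library and 0.22 without control replicate 1, and the H/ACA median 0.17 without the first colony 1 library. In colony 2 the C/D median was 0.10 without control replicate 1 and 0.12 without the second colony 2 library. The H/ACA median of colony 2 was 0.079 without control replicate 1, 0.23 without the first colony 2 library and 0.051 without the second. With log values centred on the median, the H/ACA median was 0.079 over both colonies and 0.035 in colony 1. Since the lists were not tested against other genes, these figures describe the 10 mRNAs only.

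Summed over the class, the C/D mRNAs held 406 and 455 CPM in colony 1 and 369 and 408 CPM in colony 2, against 335 and 378 CPM in control. The higher control thus exceeded the lower colony 2 library. The H/ACA sum was 318 and 349 CPM in colony 1 and 286 and 313 CPM in colony 2, against 273 and 285 CPM in control, with every knockdown library above both controls. NOP56 and DKC1 contributed most to these sums, and GAR1 little.

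Levels of different genes were compared per kilobase of merged exons, since a longer mRNA yields more reads. In control cells FBL was highest, at 81.7 ± 3.26 CPM per kb (SD, n = 2), followed by NHP2 at 74.0 ± 0.501, NOP10 at 73.5 ± 3.07 and NOP56 at 46.1 ± 4.34 CPM per kb. SNU13 followed at 37.8 ± 3.15, DKC1 at 34.0 ± 2.67, NOP58 at 27.8 ± 3.93 and GAR1 at 26.0 ± 0.998 CPM per kb. The assembly factors NAF1 and SHQ1 were far lower, at 6.61 ± 0.0457 and 6.50 ± 0.165 CPM per kb. In this order the libraries of NHP2 and NOP10, of SNU13 and DKC1, of NOP58 and GAR1, and of NAF1 and SHQ1 overlapped, so these neighbours did not differ beyond their spread.

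After knockdown GAR1 was below NOP58 in every library. GAR1 had 17.6 and 17.4 CPM per kb in colony 1 and 14.5 and 18.5 CPM per kb in colony 2, against 26.7 and 25.3 CPM per kb in control. NOP58 had 29.6 and 39.6 CPM per kb in colony 1 and 28.8 and 34.1 CPM per kb in colony 2, against 25.01 and 30.6 CPM per kb in control. The core H/ACA mRNA with the lowest level per kilobase was GAR1 in all 6 libraries.

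Proteins of a mature particle are joined in fixed numbers, and the balance of their mRNAs was followed as ratios of CPM per kb within each library. Within the C/D class, FBL to NOP56 was 1.73 and 1.79 in colony 1 and 1.78 and 1.68 in colony 2, against 1.84 and 1.71 in control, with overlapping ranges. NOP58 to NOP56 also overlapped, with means of 0.579 ± 0.0849 in colony 1, 0.566 ± 0.0196 in colony 2 and 0.602 ± 0.0286 in control (SD, n = 2 each). SNU13 to NOP56 was lower in all 4 knockdown libraries, at 0.659 and 0.620 in colony 1 and 0.591 and 0.563 in colony 2, against 0.828 and 0.815 in control.

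Within the H/ACA class, GAR1 to DKC1 was 0.391 and 0.329 in colony 1 and 0.399 and 0.469 in colony 2, against 0.831 and 0.704 in control. Its mean was 0.360 ± 0.0437 in colony 1 and 0.434 ± 0.05 in colony 2, against 0.767 ± 0.0894 in control (SD, n = 2 each). The 4 knockdown values lay far below both controls. NAF1 to GAR1 moved the other way, at 0.383 and 0.416 in colony 1 and 0.512 and 0.432 in colony 2, against 0.246 and 0.263 in control. NHP2 to DKC1 and NOP10 to DKC1 were lower than control in colony 1 and overlapped it in colony 2 for NOP10, whereas both NHP2 to DKC1 values of colony 2, 2.46 and 2.36, lay above the controls at 2.29 and 2.07. The ratios are given as a description and were not tested.

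**Figure D3:**
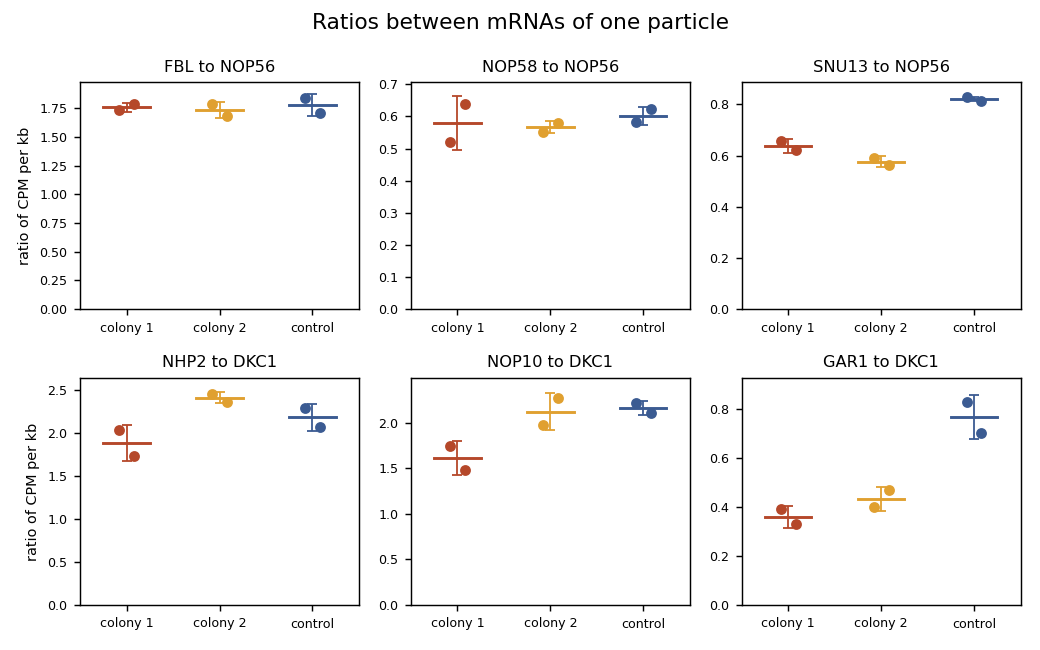
Ratios of CPM per kb between mRNAs of one particle in each library (points), with mean (line) and SD (bar, n = 2) for colony 1, colony 2 and control. GAR1 to DKC1 is at most 0.469 in the knockdown libraries and at least 0.704 in control, and SNU13 to NOP56 at most 0.659 against at least 0.815, while FBL to NOP56 overlaps between the groups.

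The start regions of the genes were searched in RefSeq windows on GRCh38.p14, from 250 bases before to 50 bases after each annotated start. Windows were found for 7 of the 10 genes, FBL, NOP56, DKC1, NHP2, NOP10, GAR1 and SHQ1. The windows of SHQ1 (chr3:72848396-72848695) and NOP56 (chr20:2652382-2652681) lie wholly inside the GENCODE gene spans given above. They do not cover the outer start of those spans. CACGTG, the E-box that MYC binds, stood in the windows of FBL, NOP10 and GAR1, or 3 of 7 genes, against 7.26% of 35116 windows. CCGGAAG on either strand, a core of ETS family sites, stood in 4 of 7, namely FBL, NOP10, GAR1 and SHQ1, against 10.3% of windows. CCAAT on either strand, the box bound by NF-Y, stood in 6 of 7, all but DKC1, against 34.6% of windows. The 3 motifs do not contain one another. The percentages are per window, over 35116 windows of 27305 genes with no regard to expression. A snoRNP gene counted when any of its windows held the motif, so the figures are not like for like and enrichment was not tested. Of the 3 genes with the E-box, FBL rose, GAR1 fell and NOP10 was not called. A link between a motif and a change was not tested. GAR1 has 2 annotated starts, and its E-box belonged to the second. The 150 bases before the first GAR1 start are given because GAR1 was the only gene of the set that fell in both colonies. CTTCCGG, the reverse complement of CCGGAAG, is in capitals.
GAR1 upstream, chr4:109815360-109815509, plus strand: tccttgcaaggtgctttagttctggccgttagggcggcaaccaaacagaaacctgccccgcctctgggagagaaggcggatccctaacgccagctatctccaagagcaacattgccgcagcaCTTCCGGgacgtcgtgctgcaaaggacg

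Near copies of the genes contributed little. The fibrillarin paralogue FBLL1 and the pseudogenes named after NOP56, NHP2 and SHQ1 were each at or below 0.817 CPM in every library. How reads shared between copies were assigned is not given in the sources used here.

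The genes that help make, move or complement these particles were examined as lists, each set beside the 44.7% of all genes called. Of all genes tested, 23.2% were higher and 21.5% lower. The share called was 39.6% with the knockdown libraries as 1 group, 45.2% with log values centred on the median and 26.5% with no filter. Median centring gave 2675 genes higher and 3511 lower, against 3171 and 2944 without it. Leaving out any 1 library also lowered the share, so a smaller list count there stands beside fewer calls over all genes. Among the box C/D assembly factors, 8 of 10 listed genes were tested, 4 were higher and 1 lower, with a median log2 change of 0.12. NUFIP1, the platform protein of C/D assembly, rose by 0.66 (limma adjusted p = 0.00497), and ZNHIT6 (BCD1), needed for C/D snoRNA accumulation, rose by 0.58 (adjusted p = 1.8e-05). ZNHIT6 had 54.9 and 52.5 CPM in colony 1 and 48.2 and 59.6 CPM in colony 2, against 32.4 and 38.7 CPM in control. The chaperone gene HSP90AB1 changed by −0.15 over both colonies (adjusted p = 0.0209). Its change was −0.027 in colony 1 (limma adjusted p = 0.764) and −0.28 in colony 2 (adjusted p = 6.6e-04). The difference between the colonies, −0.25, was called (limma adjusted p = 0.0237), but not with length and GC trends removed (adjusted p = 0.0521). NUFIP1 was not called without control replicate 2 (0.34, adjusted p = 0.221). Over both colonies HSP90AB1 lost its call without control replicate 2 (−0.068) and without the first library of colony 1 (−0.12) or of colony 2 (−0.14). It was also lost with the knockdown libraries as 1 group (limma adjusted p = 0.173). Only 2 were higher when either control or the second colony 1 library was left out, with log values centred on the median, and with the knockdown libraries as 1 group.

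Of the 12 genes of snoRNA capping, transport and end maturation, 5 were higher and 0 lower by limma, with a median of 0.14. At an unadjusted p under 0.05 the lower genes numbered 1. The share of all genes lower at that threshold was not counted, so this number has no background beside it. NOLC1 (Nopp140), which accompanies both kinds of snoRNP between nucleolus and Cajal body, rose by 0.71 (SE 0.07, adjusted p = 2.1e-09). NOLC1 had 189 and 207 CPM in colony 1 and 184 and 203 CPM in colony 2, against 114 and 125 CPM in control. TOE1, a nuclear deadenylase, changed by 0.51 (adjusted p = 0.00220), and shares 552 nt of exon with MUTYH on the opposite strand. The count of higher genes was 3 without control replicate 1.

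Telomerase partners of the H/ACA proteins were split, with 2 higher and 2 lower of 6 and a median of 0.12. With the filter at a mean of 10 CPM, which TERT did not pass, 5 were tested and the median was 0.0076. TERT, the catalytic subunit, was at 4.02 and 4.24 CPM in colony 1 and 2.85 and 3.46 CPM in colony 2, against 1.33 and 1.30 CPM in control. It rose by 0.99 on the log2(CPM + 1) scale (SE 0.21, limma adjusted p = 3.1e-04), which understates the ratio at so low a level. SMN1, of the survival of motor neuron complex, changed by 0.39 (adjusted p = 0.0331), and its reads cannot be told apart from those of its near copy SMN2 without knowing how shared reads were counted. SMN1 lost its call without control replicate 1 (adjusted p = 0.220), without the second library of colony 1 (0.0512) or of colony 2 (0.117), with no filter (0.0549), with median centring (0.0607) and with the knockdown libraries as 1 group (0.0528). TEP1 changed by −0.22 (adjusted p = 0.0492) and was not called when any 1 of the 6 libraries was left out. These values of SMN1 and TEP1 are over both colonies. SMN1 changed by 0.25 in colony 1 (limma adjusted p = 0.267) and 0.54 in colony 2 (adjusted p = 0.0138). For TEP1 the values were −0.34 in colony 1 (limma adjusted p = 0.00979) and −0.093 in colony 2 (adjusted p = 0.501). Neither gene was called for colony 2 against colony 1. The list had 1 higher and 0 lower without the second colony 2 library, with no filter and with the knockdown libraries as 1 group. It had 2 higher and 0 lower without control replicate 2 or the first library of either colony, 1 and 1 without the second colony 1 library, and 1 and 2 with median centring.

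Among the U3 and U4 partners of the C/D proteins, 2 of 10 were higher and 0 lower by limma, with a median of 0.058. At an unadjusted p under 0.05 there was 1 lower, again without a share of all genes at that threshold. RRP9, the U3-specific protein, rose by 0.52 (adjusted p = 1.4e-04). IMP4, of the U3 snoRNP, rose by 0.37 (adjusted p = 0.00208) and was not called without control replicate 1 (0.25, adjusted p = 0.0774). Without that control the list had 1 higher and 1 lower.

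Enzymes that modify RNA without a snoRNA guide were looked at for comparison. Of the 12 protein-only pseudouridine synthases, 5 were higher and 1 lower, with a median of 0.24. PUS1 rose by 0.66 (limma adjusted p = 1.0e-04) and PUS7L by 0.46 (adjusted p = 0.00193), whereas TRUB1 fell by 0.43 (adjusted p = 0.00109). PUS1 had 19.9 and 26.6 CPM in colony 1 and 24.4 and 24.4 CPM in colony 2, against 13.6 and 15.8 CPM in control. The higher genes numbered 3 without either control or with median centring, and 2 without the second colony 2 library. Of the 11 other enzymes and cofactors of rRNA modification, 4 were higher and 0 lower by limma, with a median of 0.18. At an unadjusted p under 0.05 there was 1 lower, here too without a share of all genes at that threshold. NOP2, a cytosine methyltransferase of the large subunit rRNA, rose by 0.46 (adjusted p = 5.7e-05) and BUD23, a guanine methyltransferase of the small subunit rRNA, by 0.37 (adjusted p = 4.0e-04). In the lists for capping and maturation, for U3 and U4 partners and for these enzymes, 1 gene each was called lower with median centring and with the replicate block. The same count was reached without the second colony 1 library (capping and these enzymes), without control replicate 1 (U3 and U4 partners and these enzymes) and with length and GC trends removed (U3 and U4 partners). NOP2 shares 2550 nt of exon with the annotated gene AC006064.6 on its own strand, and PUS1, PUS7L, IMP4 and BUD23 share exon sequence with genes on the opposite strand.

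**Figure D4:**
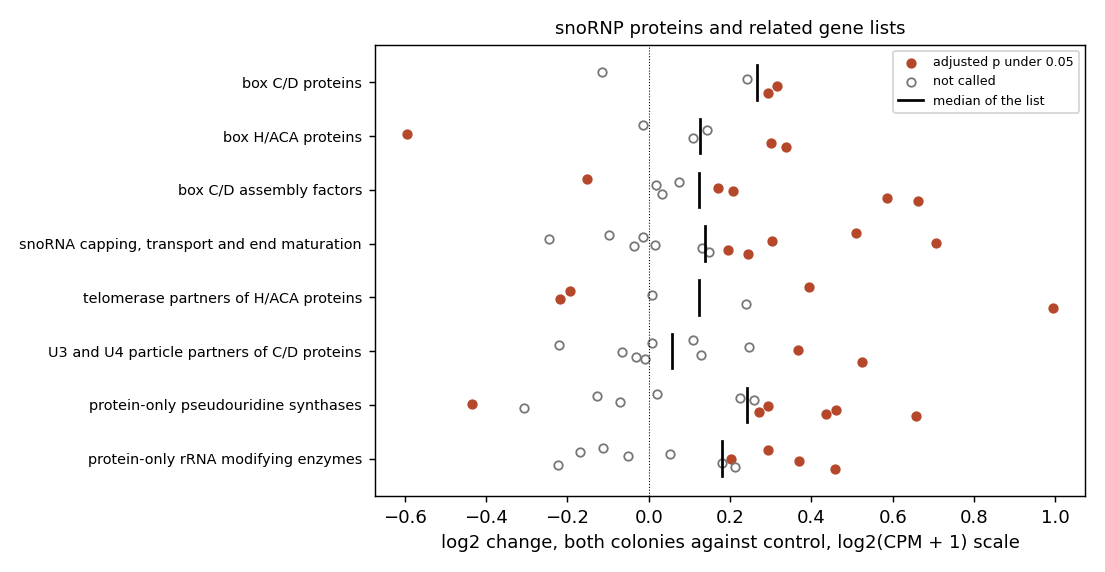
Log2 change over both colonies against control (x axis, log2(CPM + 1) scale) of each tested gene in the 2 snoRNP classes and in 6 related lists, with filled points for an adjusted p under 0.05 and a bar at the list's median. Medians lie between 0.058 for the U3 and U4 partners and 0.27 for the C/D proteins, and GAR1, at −0.59, is the lowest point.

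The genes whose profile over the 6 libraries came closest to those of NOP56 and GAR1, the genes with the largest change in each class, were found among 8547 other genes that reached 20 CPM in one or other group mean. Likeness was the root mean square distance between log2(CPM + 1) values, each centred on the mean of the controls. CFAP20 (0.013), EOLA2 (0.018) and PSMD14 (0.024), a deubiquitinating subunit of the proteasome, were closest to NOP56. For GAR1 they were CMAS (0.053), the enzyme that activates sialic acid, CRY2 (0.059), a circadian repressor, and TMEM80 (0.064). CMAS had 30.6 and 32.8 CPM in colony 1 and 27.9 and 32.9 CPM in colony 2, against 48.6 and 47.6 CPM in control. As these genes were picked for their profiles, their changes carry no test here.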

How the data were processed

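RNA was treated with DNase and made into mRNA-seq libraries by random priming, per the labels' protocols. The tools Trim Galore and HISAT2 and the builds hg38 and mm10 are listed per the submitters' processing notes. No source used here gives the counting program, the annotation or the use of strand. The authors deposited CPM, and every CPM value in the deposited table was a whole multiple of its library's smallest step within 1e-06. The rows held an implied 8843847 to 11902437 reads per library, fewer than the totals used for scaling. Of the CPM, 2.50% to 2.62% stood in rows with no symbol. These 15200 rows, and 10 rows that shared a symbol, were left out.

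The 13675 genes averaging 1 CPM or more were fitted as log2(CPM + 1) with limma 3.58.1 (trend and robust spread, 3 groups, no covariate) in R 4.3.3. Tests were two-sided. The planned count models were not used because the file holds CPM. Since no label ties replicates to cultures of their own, p-values reflect library-to-library spread, which may be technical. Exon lengths and overlaps came from GENCODE 29, start windows from RefSeq. All 10 genes are described. Of each related list, the 2 called genes with the largest change are named, and 1 called in the opposite direction where there was one. DDX18 is a check. Genes and lists were chosen with earlier results of these data known. Alternatives varied the pseudocount, filter, scaling, grouping, replicate block, length and GC trends, and the libraries kept.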

Additional observations from a re-analysis of the deposited data

Results flagged for a closer look

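DKC1 differed between the 2 colonies in its change against control. Its change against control was 0.52 in colony 1 and 0.15 in colony 2, and the difference of colony 2 minus colony 1, −0.36 on the log2 scale (SE 0.08), was called by limma (adjusted p = 0.0164). DKC1 was at 112 and 121 CPM in colony 2 and 139 and 163 CPM in colony 1. The difference was −0.25 without the second colony 1 library and −0.31 without the first colony 2 library, and the call did not hold there.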

How the results depend on the processing

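Over 14 alternatives other than the replicate block, 512 of 530 values of the 10 genes kept their side of the threshold, 11 lost a call, 7 gained one and 0 reversed. Reversed means a change of sign where either value was called. Values that were not called did change sign, as for SHQ1 over both colonies, which ran from −0.11 to 0.084. Leaving out 1 library at a time gave 2 to 5 genes called in colony 2 (0 to 3 higher, 1 to 2 lower) against 5 with all 6, while 28.6% to 41.0% of all genes tested were called there. It gave 0 to 1 for colony 2 against colony 1 (0 to 1 lower). Over all genes, colony 2 against colony 1 then gave 21 to 134 higher and 116 to 318 lower, against 86 and 226 with all 6. The medians of the related lists over both colonies then ran from 0.065 to 0.17 for C/D assembly factors, 0.065 to 0.22 for capping and maturation, 0.0067 to 0.099 for U3 and U4 partners and 0.15 to 0.28 for the pseudouridine synthases. Where 1 library was left in a group, it was assumed to vary like the others. The cause of these shifts was not tested, and the fits without 1 library also rest on fewer samples. The replicate numbers are shared by the groups, but the labels tie them to no culture or day. Deviations from the group means correlated across genes at 0.119 (colony 1 with control), 0.128 (colony 2 with control) and 0.159 (colony 2 with colony 1). Replicate 2 was the higher for 8 snoRNP genes in colony 1, 9 in colony 2 and 8 in control, against 52.2%, 46.4% and 50.7% of all genes tested in the same groups. With the replicate block, 361 genes were higher and 675 lower in colony 2 against colony 1, and 2 snoRNP genes, DKC1 and SNU13 (−0.25, adjusted p = 0.0108), were lower there, where 7.58% of all genes were called. The block gave 6 of the 10 called for both colonies, with NOP58 added (0.24, adjusted p = 0.00167), beside 51.7% of all genes. The block also gave a call to NOP58 in colony 1 (0.30, adjusted p = 6.8e-04), beside 46.8% of all genes, and to DKC1 in colony 2 (0.15, adjusted p = 0.0332), beside 48.0%. The planned edgeR and DESeq2 fits were not run, as the deposited unit was CPM. Depth limits NAF1 and SHQ1 most, with 163 to 242 reads per library.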
